A study of Mus musculus with 4 samples.

Results

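Interferon-stimulated genes are the genes that cells switch on when interferon, a cytokine released during viral infection, binds its receptor. They were followed here in astrocytes isolated from mouse cerebral cortex at postnatal day 5, as a list of 37 genes named by symbol and spanning transcription factors, RNA sensors and antiviral effectors. Of the 37, 33 had a row among the 23475 genes of the deposited tables, and 29 of those 33 passed the filter on low counts, out of 17696 genes that passed it in all. Isg15, Ifit1, Oas1a and Oas3 are not analysed here.

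The study compared 2 libraries labelled WT with 2 labelled KO. The WT mice were PD1fl/fl, so they carry loxP-flanked alleles of the PD-1 gene Pdcd1, and the KO mice are named PD1cKO-Cx3, a conditional deletion of the same gene. What the term Cx3 stands for is not spelled out in the labels. Mouse numbers, sexes and whether a library pooled animals are not given in the sources used here, and p-values therefore measure the spread between these libraries, which may be technical. PD-1 is an inhibitory receptor of immune cells, and the comparison addresses what its conditional deletion changes in the astrocyte preparation.

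Listed counts ranged from 14224519 to 16961160 per library. Pdcd1 itself had 0 counts in both WT libraries, 20 in the library labelled KO 2 and no listed count, so at most 4, in the library labelled KO 1, which gives no check of the labels. KO replicate 2 stood apart in its sex-linked transcripts. It had 2472 counts of Ddx3y against 0 listed in the other 3 libraries, and 0 counts of Xist against 6732 to 8564. The KO libraries thus held different animals, and sex differed within the KO pair but not visibly within the WT pair. The summed level of 9 astrocyte markers was 7198 and 6437 CPM (counts scaled to a common library size) in the KO libraries and 7249 and 6839 CPM in the WT libraries. The summed level of 24 markers of microglia and macrophages was 5772 and 4774 CPM in the KO libraries against 1163 and 1633 CPM in the WT libraries. All the libraries thus held RNA of both kinds of cell, and in bulk RNA fewer cells of a type cannot be told apart from less RNA per cell.

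As background, type I interferons bind the receptor IFNAR, whose kinases JAK1 and TYK2 phosphorylate transcription factors such as STAT2. STAT2 joins IRF9 in a complex that binds the interferon-stimulated response element (ISRE) in promoters of the antiviral genes. Interferon gamma signals through its own receptor to an overlapping set, which includes the guanylate-binding proteins and IRF1. In the brain, astrocytes and microglia both respond to interferon, and a low level of many of these genes is present without infection.

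The promoters of the 6 members with an unadjusted p under 0.05 between the groups are shown first, because the response element is a sequence known from many interferon-stimulated genes. Each run gives the 150 bases before a RefSeq gene start on GRCm38.p6, written 5′ to 3′ along the gene's strand. Capitals mark every match to GAAANNGAA, the core of the response element, on either strand, where it reads as TTCNNTTTC on the other strand.

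Bst2, chr8:71537473-71537622, minus strand: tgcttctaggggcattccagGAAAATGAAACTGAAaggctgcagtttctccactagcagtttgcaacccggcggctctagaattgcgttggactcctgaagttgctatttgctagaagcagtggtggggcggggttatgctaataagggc

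Gbp7, chr3:142530186-142530335, plus strand: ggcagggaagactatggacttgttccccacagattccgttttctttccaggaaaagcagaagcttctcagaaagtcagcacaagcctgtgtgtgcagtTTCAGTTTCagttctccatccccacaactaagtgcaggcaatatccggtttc

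Gbp3, chr3:142559894-142560043, plus strand: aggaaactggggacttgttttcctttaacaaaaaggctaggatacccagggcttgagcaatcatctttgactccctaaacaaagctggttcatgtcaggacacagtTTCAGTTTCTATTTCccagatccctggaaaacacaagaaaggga

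Trim25, chr11:88999253-88999402, plus strand: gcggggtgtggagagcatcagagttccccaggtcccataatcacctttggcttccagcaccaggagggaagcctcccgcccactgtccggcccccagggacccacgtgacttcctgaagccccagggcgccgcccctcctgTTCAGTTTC

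Rsad2, chr12:26456453-26456602, minus strand: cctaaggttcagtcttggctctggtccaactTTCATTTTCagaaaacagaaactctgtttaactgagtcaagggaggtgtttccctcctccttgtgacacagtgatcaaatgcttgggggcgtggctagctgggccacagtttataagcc

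Sp100, chr1:85649838-85649987, plus strand: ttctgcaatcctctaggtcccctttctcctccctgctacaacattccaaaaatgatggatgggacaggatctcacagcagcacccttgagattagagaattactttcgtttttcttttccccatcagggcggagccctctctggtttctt

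Of these 6, Sp100 has no match in either of its 2 RefSeq windows, of which the first is shown, and the other 5 have at least 1. Gbp3 also has 2 windows, and only the first, which is shown, holds a match. Ifit2 and Cmpk2, which were among the members of highest level per kilobase of exon, are shown for comparison, since neither holds the motif in this window. Ifit2 has 2 windows, with no match in either, and its first is shown.

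Ifit2, chr19:34550544-34550693, plus strand: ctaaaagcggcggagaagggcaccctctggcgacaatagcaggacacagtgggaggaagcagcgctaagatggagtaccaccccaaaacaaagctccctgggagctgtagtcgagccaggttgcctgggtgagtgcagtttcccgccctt

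Cmpk2, chr12:26469065-26469214, plus strand: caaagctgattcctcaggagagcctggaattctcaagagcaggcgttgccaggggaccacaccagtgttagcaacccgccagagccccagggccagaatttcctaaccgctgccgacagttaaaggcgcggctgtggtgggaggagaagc

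RefSeq promoter windows of 300 bases (250 before to 50 after the start) matched 29 of the 37 symbols. GAAANNGAA was present in a window of 20 of these 29 genes (69.0%), against 9.76% of the 27025 genes with a window. A longer form of the motif, with 1 more A at its end, was present in 18 (62.1%) against 3.99%. A match is a run of letters and was not tested for binding.

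The 15 members with a mean of at least 5 CPM over the 4 libraries are given first. That mean takes in the KO libraries, so a member can reach it through them. Trim30a, among the 15, passed the low-count filter in both KO libraries but in only 1 WT library. Its upward direction was thus partly set by the filter. Of these 15, 12 had a fold change above 0, with a median log2 fold change (KO minus WT) of 0.46. Over the 12194 genes of at least 5 CPM, 49.4% were above 0 and the median was -0.01. In 10 of the 15 both KO libraries lay above both WT libraries, against 20.8% of those genes, and in 1, Eif2ak2, both lay below, against 19.7%. An unadjusted p under 0.05 was reached by 4 of the 15, all higher, against 6.14% of those genes. No single member differed beyond the spread between replicates by this test: 0 of the 29 passed an adjusted p of 0.05 (edgeR quasi-likelihood test, Benjamini-Hochberg), where 3 of 17696 genes passed as higher (0.017%) and 0 as lower (0.0%). The lowest adjusted p among members was 0.304, for Bst2. DESeq2 passed 1 member, Bst2 again (adjusted p = 0.0248), against 1.78% of genes higher and 0.356% lower, and limma-voom passed 0.

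At an unadjusted p under 0.05 in the edgeR test, 6 of the 29 were higher in the KO libraries and 0 lower, where 5.88% of all genes tested were higher and 2.41% lower. The 6 were Bst2, Gbp7, Gbp3, Trim25, Rsad2 and Sp100. Without KO replicate 1 the count was 1, and without any other library it was between 6 and 8. Over all 29, 21 were above 0 against 50.0% of all genes, both KO libraries lay above both WT libraries in 17 against 21.2%, and the reverse held in 1 against 18.4%. The median over the 29 was 0.86, and leaving out KO replicate 1 or KO replicate 2 gave 0.50 or 0.46. The low-count filter bears on these counts. Of the 29, 8 reached its limit of 0.615 CPM in both KO libraries but not in both WT libraries. For these the upward direction was partly set by the filter. They were Oas2, Ifit3, Rsad2, Sp100, Dhx58, Parp14, Trim30a and Xaf1, of which the first 4 passed through the KO libraries alone. Among the other 21, 13 were above 0, the median was 0.28, and both KO libraries lay above both WT libraries in 10.

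**Figure D1:**
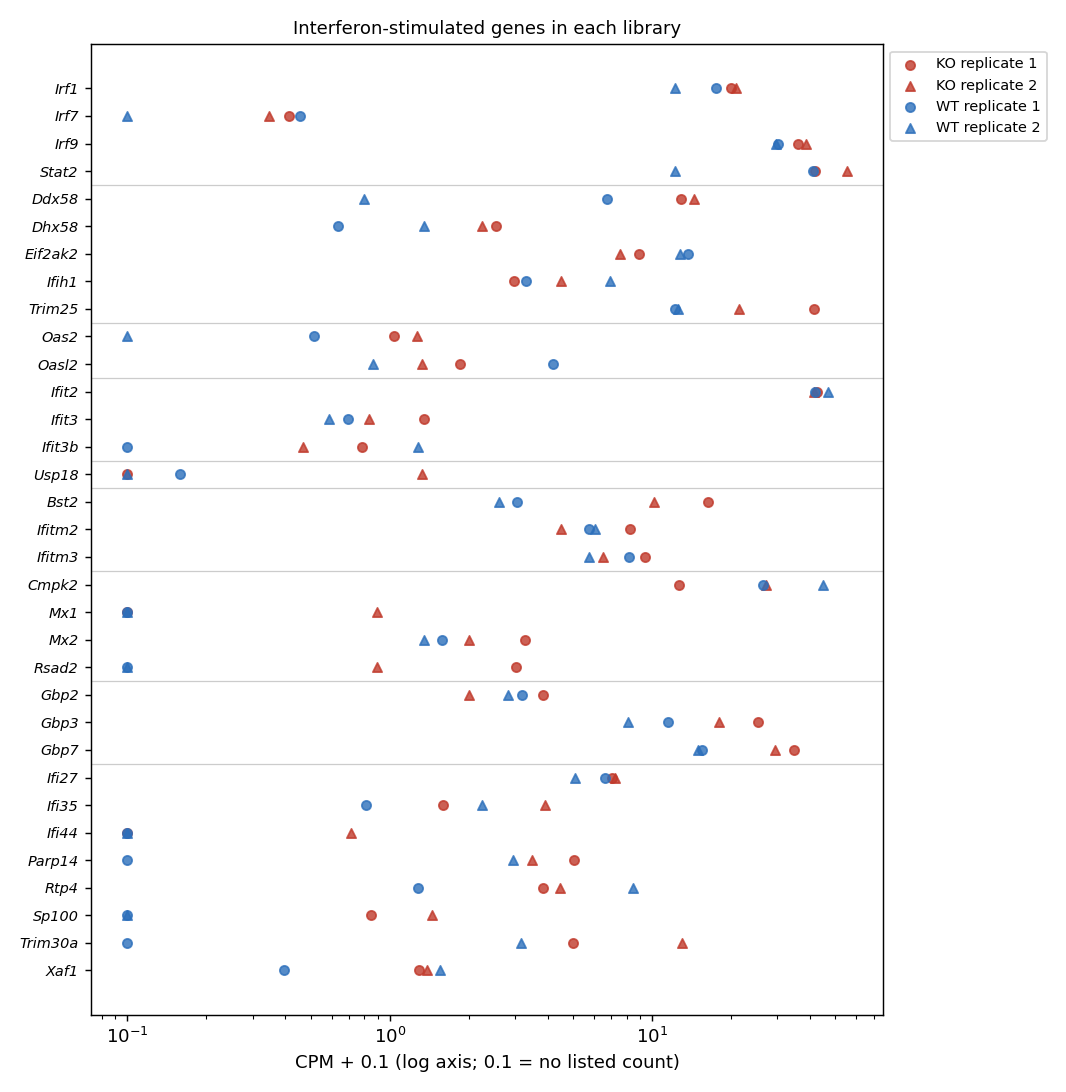
Level of each of the 33 measured members in each library, as CPM + 0.1 on a log axis, grouped by role (grey lines). Red marks are the KO libraries and blue the WT libraries, circles replicate 1 and triangles replicate 2. Bst2, Gbp3, Gbp7 and Trim25 show the 2 colours fully apart, while Ifit2 shows all 4 marks together.

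Among the transcription factors, all 3 tested members lay higher in both KO libraries than in both WT libraries, as did 21.2% of all genes tested. Irf9 (ENSMUSG00000002325, chromosome 14, 55603571 to 55610030), the DNA-binding partner of STAT2, was at 36.0 and 38.6 CPM in the KO libraries and at 30.2 and 29.7 CPM in the WT libraries. The pairs were close within each group, and the log2 fold change was 0.32 ± 0.21 (SE; edgeR adjusted p = 0.806). Irf1 (chromosome 11, 53770014 to 53778374), a factor of the interferon gamma response, was at 19.9 and 20.8 CPM in the KO libraries and at 17.4 and 12.1 CPM in the WT libraries. Its log2 fold change was 0.46 ± 0.31 (SE; edgeR adjusted p = 0.806), with WT replicate 2 the low value, and was 0.22 without that library and 0.75 without WT replicate 1.

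Stat2 (chromosome 10, 128270559 to 128292849), the partner of IRF9 in the complex, was at 41.7 and 55.0 CPM in the KO libraries and at 41.1 and 12.2 CPM in the WT libraries. WT replicate 1 was thus nearly level with KO replicate 1, WT replicate 2 was the low value, and the log2 fold change was 0.86 ± 0.55 (SE; edgeR adjusted p = 0.791). Leaving out WT replicate 2 gave 0.24, and leaving out WT replicate 1 gave 1.99. Irf7, the factor that amplifies the type I response and is itself strongly induced by interferon, had 5 and 4 counts in the KO libraries and 6 and 0 in the WT libraries. It was too low to test, and a difference was not detectable at this depth.

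The RNA sensors differed in direction among themselves. Ddx58 (chromosome 4, 40203773 to 40239828), which encodes RIG-I, the sensor of short viral RNA with a 5′ triphosphate, was at 12.8 and 14.3 CPM in the KO libraries and at 6.64 and 0.695 CPM in the WT libraries. By ratio, the WT pair differed more from each other than WT replicate 1 differed from either KO library, and the log2 fold change of 1.88 ± 0.94 (SE) had an adjusted p of 0.693 (edgeR). Leaving out WT replicate 2 gave 1.03, and leaving out WT replicate 1 gave 4.27. Trim25 (ENSMUSG00000000275, chromosome 11, 88999376 to 89020293), the ubiquitin ligase that activates RIG-I, was at 41.4 and 21.4 CPM in the KO libraries and at 12.1 and 12.4 CPM in the WT libraries. Here the WT pair was tight and the KO pair wide, with KO replicate 1 the higher, and the log2 fold change was 1.35 ± 0.38 (SE; edgeR adjusted p = 0.447), or 0.80 without KO replicate 1.

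Eif2ak2 (chromosome 17, 78852564 to 78882573), which encodes PKR, the kinase that halts translation on double-stranded RNA, went the other way. It was at 8.81 and 7.42 CPM in the KO libraries and at 13.6 and 12.7 CPM in WT (log2 fold change -0.69 ± 0.35 SE; edgeR adjusted p = 0.701). Both KO libraries lay below both WT libraries, the sole member of the 29 with this pattern. Dhx58, which encodes the RIG-I regulator LGP2, and Ifih1, which encodes the long-RNA sensor MDA5, reached at most 6.81 CPM in any library, with log2 fold changes of 1.36 ± 1.01 and -0.46 ± 0.66 (SE).

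The oligoadenylate synthetase family, which makes the second messenger that activates RNase L, was near the limit of detection. Oas2 and Oasl2, the 2 members with a row, reached at most 4.09 CPM in any library and had log2 fold changes of 2.28 ± 1.80 and -0.71 ± 1.09 (SE). Oas2 was at 0 in WT replicate 2. Neither passed the test (edgeR adjusted p = 0.845 and 0.947).

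Ifit2 (ENSMUSG00000045932, chromosome 19, 34550694 to 34576419), of a family whose members bind viral RNA and block its translation, was the most even of the abundant members. It was at 42.4 and 41.3 CPM in the KO libraries and at 41.8 and 46.9 CPM in the WT libraries. The groups overlapped, and the log2 fold change was -0.08 ± 0.20 (SE; edgeR adjusted p = 0.973). Its neighbours Ifit3 and Ifit3b were between 0 and 1.25 CPM, and these 2 genes are 97.8% identical over 1700 aligned bases, so reads could have been split between them and their values are uncertain. Usp18, the protease that removes ISG15 from proteins and dampens the receptor, had 0 and 20 counts in the KO libraries and 1 and 0 in the WT libraries, and was not tested.

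The membrane restriction factors were split. Bst2 (ENSMUSG00000046718, chromosome 8, 71534255 to 71537456, minus strand) encodes tetherin, which holds budding virus particles at the cell surface. It was at 16.2 CPM in KO replicate 1 and 10.1 CPM in KO replicate 2, and at 2.96 and 2.50 CPM in the WT libraries. The KO libraries were both above the WT libraries by more than the gap inside either group, with means of 13.2 ± 4.4 CPM and 2.73 ± 0.33 CPM (SD, n = 2 each), a 4.81-fold difference.

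Bst2 thus had a log2 fold change of 2.26 ± 0.47 (SE; edgeR adjusted p = 0.304), between 1.88 and 2.57 when any 1 library was left out. Its promoter window above holds 2 overlapping matches to GAAANNGAA. Ifitm3 and Ifitm2 encode small membrane proteins that block virus entry by fusion. Ifitm3 (chromosome 7, 141009586 to 141010770) was at 9.31 and 6.38 CPM in the KO libraries and at 8.06 and 5.63 CPM in the WT libraries. Ifitm2 (chromosome 7, 140954837 to 140955987) was at 8.12 and 4.42 CPM in the KO libraries and at 5.63 and 5.98 CPM in the WT libraries. In both genes the groups overlapped, with log2 fold changes of 0.20 ± 0.47 and 0.11 ± 0.53 (SE). Ifitm2 is 97.0% identical to Gm11951 over 432 bases and shares 40.9% of its exon bases with Gm45717, so its counts are uncertain.

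Rsad2 and Cmpk2 form a divergent gene pair on chromosome 12 whose starts lie 12.8 kb apart and which interferon is known to induce together. Rsad2 (ENSMUSG00000020641, 26442746 to 26456452, minus strand) encodes viperin, which makes a chain-terminating nucleotide, and CMPK2 supplies its substrate. Rsad2 had 47 and 13 counts in the KO libraries and 0 in both WT libraries, or 2.94 and 0.797 CPM against 0. Against a nominal floor of 3 counts over the WT group, the pooled KO level was 19.4-fold higher (edgeR adjusted p = 0.448). Rsad2 passed the low-count filter through the KO libraries alone, and for such a gene an upward direction is fixed. The KO libraries themselves differed by 1.41 on the log2 scale (CPM + 0.5).

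Cmpk2 (ENSMUSG00000020638, 26469204 to 26479837, plus strand) did not share this pattern. It was at 12.6 and 27.0 CPM in the KO libraries and at 26.4 and 44.8 CPM in the WT libraries. The groups overlapped, with KO replicate 1 the lowest and WT replicate 2 the highest, and the log2 fold change was -0.85 ± 0.45 (SE; edgeR adjusted p = 0.721). Left-out libraries moved it from -1.50 (without KO replicate 2) to -0.40 (without KO replicate 1). The library with the most Rsad2 was therefore the one with the least Cmpk2. Of the MX dynamins, which trap incoming viral capsids, Mx2 was between 1.25 and 3.19 CPM with a log2 fold change of 0.89. Mx1 had 13 counts in KO replicate 2, 0 in both WT libraries and no listed count in KO replicate 1, and was not tested.

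Guanylate-binding proteins are GTPases that attack the vacuoles of intracellular microbes and are best known as targets of interferon gamma. Gbp7 (ENSMUSG00000040253, chromosome 3, 142530342 to 142550149) was at 34.7 and 29.4 CPM in the KO libraries and at 15.4 and 14.8 CPM in the WT libraries. Gbp3 (ENSMUSG00000028268, chromosome 3, 142560026 to 142573209) was at 25.3 and 17.9 CPM in the KO libraries and at 11.4 and 8.0 CPM in the WT libraries. In both genes the KO libraries lay above the WT libraries with no overlap, and the WT pair of Gbp7 was nearly level.

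The differences came to 2.12-fold for Gbp7 (log2 1.08 ± 0.25 SE, edgeR adjusted p = 0.350) and 2.23-fold for Gbp3 (log2 1.16 ± 0.36 SE, edgeR adjusted p = 0.458). Left-out libraries moved Gbp7 between 0.96 and 1.20 and Gbp3 between 0.89 and 1.43. Gbp2, which lies in the same cluster on chromosome 3, did not share the pattern, with 3.75 and 1.90 CPM in the KO libraries, 3.08 and 2.71 CPM in the WT libraries and a log2 fold change of -0.04. All 3 genes hold GAAANNGAA in a promoter window, Gbp3 in 1 of its 2. Gbp7 shares 11.3% of its exon bases with the pseudogene Gm43802.

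**Figure D2:**
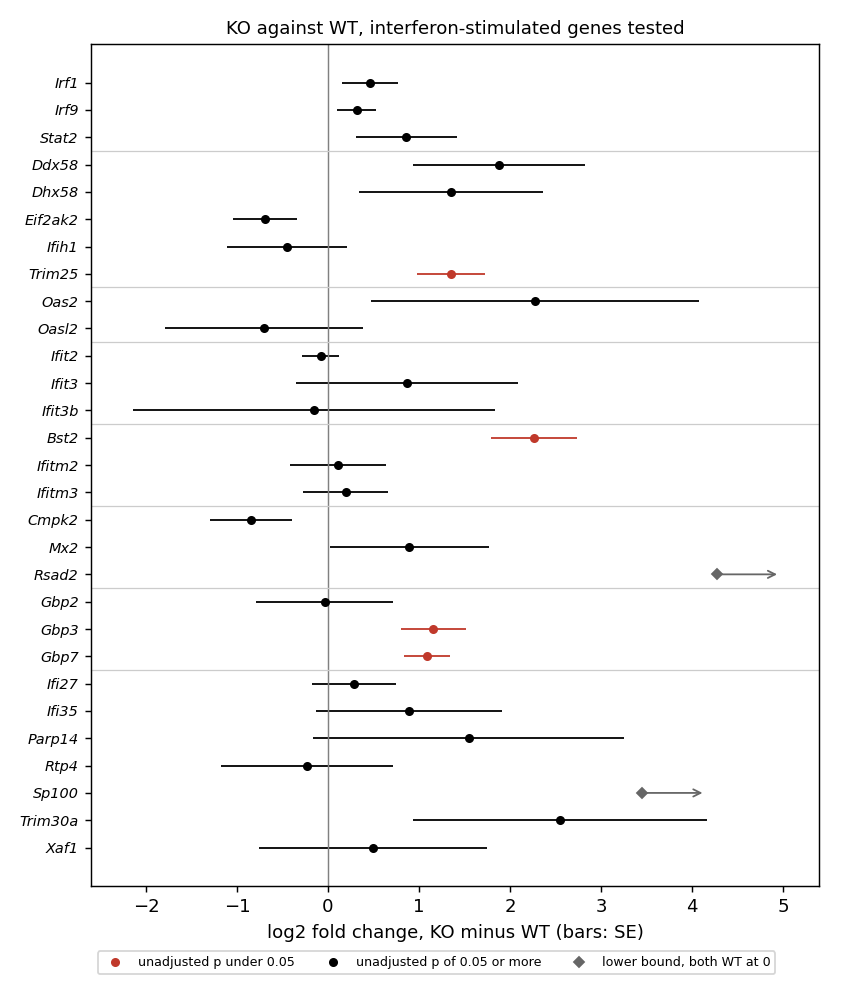
Log2 fold change, KO minus WT, of the 29 tested members with standard errors, grouped by role (grey lines). Red points have an unadjusted p under 0.05. Grey diamonds with arrows, drawn as lower bounds, place Rsad2 and Sp100 against a floor of 3 counts, since both WT libraries had 0 counts. Points right of 0 are the more numerous, and most bars reach or come near 0.

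Of the remaining interferon-induced genes, 6 of 7 tested lay above 0 (50.0% of all genes), with a median of 0.89. Among them Parp14, Sp100, Trim30a and Xaf1 passed the low-count filter in both KO libraries but not in both WT libraries. Their upward direction was thus partly set by the filter. Sp100 (ENSMUSG00000026222, chromosome 1, 85649988 to 85709998), a nuclear-body protein that silences incoming DNA viruses, had 12 and 22 counts in the KO libraries and 0 in both WT libraries. Against the same floor the pooled KO level was 11.0-fold higher (edgeR adjusted p = 0.476), in a gene that passed the filter through the KO libraries alone. Trim30a (chromosome 7, 104409025 to 104465193), a ligase of the tripartite-motif family, had 78 and 211 counts in the KO libraries and 0 and 44 in the WT libraries. Each library differed widely from its partner, and the log2 fold change was 2.55 ± 1.61 (SE), or 1.54 without WT replicate 1. Without WT replicate 2 the remaining WT library is at 0.

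Ifi27 (chromosome 12, 103434211 to 103440239), a small membrane protein of mitochondria, was at 6.94 and 7.11 CPM in the KO libraries and at 6.52 and 5.01 CPM in WT (log2 fold change 0.28 ± 0.46 SE). Ifi35, Parp14, Rtp4 and Xaf1 lay between 0 and 8.34 CPM, and their fold changes, from -0.23 to 1.55 on the log2 scale, were each smaller than their standard error. Ifi44 had 10 counts in KO replicate 2, 0 in both WT libraries and no listed count in KO replicate 1, and was not tested.

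Per kilobase of exon, which allows levels to be compared between genes, the members were mostly low. Their median was 1.18 CPM per kb against 4.30 over all genes tested, and 10 of the 33 lay above that value. The order began with Ifit2 at 11.0, Ifitm3 at 10.8, Ifitm2 at 9.22 and Bst2 at 8.80 CPM per kb as means of the 4 libraries. Ifit2 ranged from 10.5 to 11.9 between libraries, Ifitm3 from 8.31 to 13.7 and Ifitm2 from 6.74 to 12.4, so these neighbours did not differ beyond their spread. Bst2 ranged from 2.77 to 18.0, level with the top of the order in the KO libraries and below the median of all genes in the WT libraries. Cmpk2, Stat2 and Irf9 followed at 6.65, 6.33 and 6.24 CPM per kb and overlapped each other. Of all genes tested, 72.8% were below the mean of Ifit2.

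The 18 members with a mean under 5 CPM show how much of the list sits at the edge of detection. They ranged from 0 to 4.94 CPM in KO replicate 1, from 0.245 to 4.42 CPM in KO replicate 2, from 0 to 4.09 CPM in WT replicate 1 and from 0 to 8.34 CPM in WT replicate 2. Of all 33, 7 were at 0 in WT replicate 1, 7 in WT replicate 2, 3 in KO replicate 1 and 0 in KO replicate 2. Of the 3, Mx1 and Ifi44 had no listed count in KO replicate 1, so at most 4, and were taken as 0. Summed over the 33, the level was 353 and 346 CPM in the KO libraries and 255 and 246 CPM in the WT libraries.

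Many members differed between replicates of a group. The median gap between replicates was 0.49 on the log2 scale (CPM + 0.5) in the KO pair and 0.48 in the WT pair, against 0.29 and 0.39 over all genes tested. In the WT pair 9 of the 29 (31.0%) differed more than 2-fold, against 20.3% of all genes tested, and in the KO pair 4 (13.8%) against 12.6%. In the 14 tested members under 5 CPM the WT share was 42.9%, against 44.1% of all such genes. Of the 15 of at least 5 CPM, 3 did so, against 9.61% of all such genes.

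The WT gaps did not run one way. Ddx58, Oasl2 and Stat2 were higher in WT replicate 1, by 2.58, 1.86 and 1.71 on the log2 scale. Trim30a, Parp14, Rtp4, Ifit3b, Xaf1 and Ifi35 were higher in WT replicate 2, with log2 ratios of replicate 1 over replicate 2 from -2.83 to -1.13. No single WT library was thus high or low across the list.

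**Figure D3:**
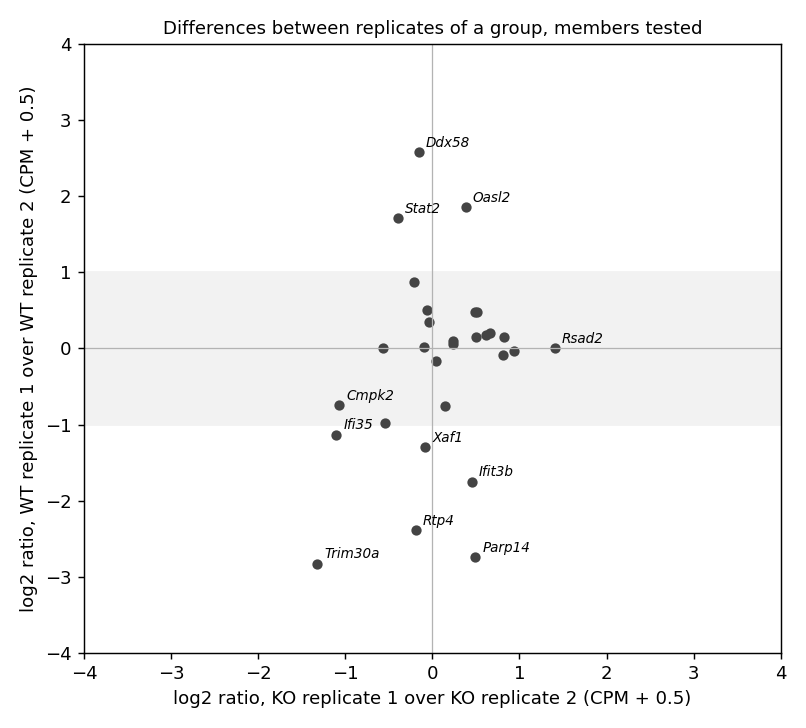
Log2 ratio of replicate 1 over replicate 2 in the WT pair (vertical axis) and in the KO pair (horizontal axis) for the 29 tested members, as CPM + 0.5, with the grey band marking WT ratios of less than 2-fold. Named genes differ more than 2-fold in a pair. Ddx58, Stat2 and Oasl2 lie above the band and Trim30a, Parp14 and Rtp4 lie furthest below it.

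Genes with the response element in their promoter window and those without it gave overlapping values. Of the 23 tested members with a window, 15 held GAAANNGAA and 8 did not. With the motif 11 of 15 were above 0, with a median log2 fold change of 0.87, and both KO libraries lay above both WT libraries in 9. Without it 5 of 8 were above 0, with a median of 0.39, and 3 of 8 lay apart in that way. Over all genes tested these shares were 50.0% above 0 and 21.2% apart. The low-count filter bears on these values as well. Ifit3, Rsad2 and Trim30a with the motif, and Sp100 and Xaf1 without it, passed it in both KO libraries but not in both WT libraries. Their upward direction was thus partly set by the filter, and the median of 0.87 is the value of Ifit3 itself. The difference between these small groups was not tested. Sp100, Irf9 and Irf1 were higher in both KO libraries with no match in the window, and Eif2ak2 was lower in both with 2 matches.

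The rest of the interferon pathway, 76 other genes of which 62 had a row and 46 were tested, was read from the same test. Of the 46, 33 were above 0 and 13 below, with a median log2 fold change of 0.41, and 8 had an unadjusted p under 0.05, all higher. Over all genes tested, 50.0% were above 0 and 5.88% were higher at that p. The low-count filter bears on these counts too. Tmem173 and Psmb9 reached its limit of 0.615 CPM in the KO libraries alone, and Ifnk in the WT libraries alone. Ddx60, Gbp9, Irgm2, Samd9l and Ikbke reached it in both KO libraries but in only 1 WT library. Helz2 reached it in both WT libraries but in only 1 KO library. The upward direction of Tmem173, Psmb9, Ddx60, Gbp9, Irgm2 and Samd9l was thus partly set by the filter. The same holds for the downward direction of Ifnk and Helz2, while Ikbke was below 0. With edgeR 0 of the 46 passed the adjusted threshold, where 0.017% of all genes tested passed as higher. DESeq2 passed 2, Ifngr1 and Irf8, both higher, where it passed 1.78% of all genes tested as higher and 0.356% as lower. Of 10 interferon ligands 1, Ifnk, had a row, at 0.312 and 0.552 CPM in the KO libraries and 0.948 and 0.904 CPM in the WT libraries.

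Of the 9 receptor and JAK-STAT genes, 7 were above 0 (50.0% of all genes) and 2 were higher at an unadjusted p under 0.05 (5.88% of all genes). Ifngr1, the ligand-binding chain of the interferon gamma receptor, was at 309 and 246 CPM in the KO libraries and at 149 and 114 CPM in WT (log2 fold change 1.08 ± 0.19 SE; edgeR adjusted p = 0.222, DESeq2 adjusted p = 1.4e-05). Il10rb, a chain shared by the receptors of interferon lambda and interleukin 10, was at 21.2 and 11.6 CPM in the KO libraries and at 6.10 and 6.88 CPM in the WT libraries (log2 1.33 ± 0.43 SE). Ifnar1, a chain of the type I receptor named for its place in the pathway after its values were seen, was at 119 and 98.6 CPM in the KO libraries and at 99.0 and 90.2 CPM in the WT libraries (log2 0.20 ± 0.17 SE).

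Among the inducers of interferon, 9 of 11 tested were above 0 (50.0% of all genes) and 4 were higher at an unadjusted p under 0.05 (5.88% of all genes), with a median of 0.61. Tmem173, among the 9, passed the low-count filter through the KO libraries alone, so its upward direction was partly set by the filter. Irf8, an interferon regulatory factor that is also a lineage factor of microglia and other myeloid cells, was at 63.7 and 49.5 CPM in the KO libraries and at 14.5 and 16.8 CPM in the WT libraries (log2 1.86 ± 0.25 SE; edgeR adjusted p = 0.118, DESeq2 adjusted p = 2e-06). Irf5, which acts below Toll-like receptors in myeloid cells, was at 15.4 and 9.57 CPM in the KO libraries and at 5.33 and 2.50 CPM in the WT libraries (log2 1.67 ± 0.55 SE). The 24 microglia and macrophage markers were higher in the same libraries, by the sums given above. Tbk1, the kinase that activates IRF3 in most cell types, had a log2 fold change of 0.01 ± 0.25 (SE), at 75.6 and 77.7 CPM against 58.5 and 93.5 CPM.

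Of the 6 tested negative regulators 3 were above 0 (50.0% of all genes) and 3 below, with a median of 0.02. Irf2, which competes with IRF1 for its sites, was at 13.7 and 10.6 CPM in the KO libraries and at 4.44 and 3.41 CPM in the WT libraries (log2 1.63 ± 0.43 SE; edgeR adjusted p = 0.418). Ptpn2, a phosphatase of JAK1, was at 15.9 and 17.2 CPM against 21.7 and 24.4 CPM (log2 -0.47 ± 0.26 SE). Socs3, a feedback inhibitor of JAK kinases, overlapped between the groups, at 46.4 and 43.5 CPM against 46.2 and 22.6 CPM.

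A further 38 interferon-induced genes outside the list gave 34 rows and 19 tested genes, of which 14 were above 0 (50.0% of all genes) and 1 was higher at an unadjusted p under 0.05 (5.88% of all genes), with a median of 0.47. That 1 was Parp9, a partner of the ligase DTX3L, at 11.2 and 9.26 CPM in the KO libraries and at 3.79 and 4.24 CPM in the WT libraries (log2 1.35 ± 0.44 SE). Psmb9, an inducible subunit of the immunoproteasome, was at 3.62 and 0.675 CPM against 0.237 and 0.417 CPM. Psmb9, Ddx60, Gbp9, Irgm2 and Samd9l, all above 0, passed the low-count filter in both KO libraries but not in both WT libraries. Their upward direction was thus partly set by the filter. Pml, the scaffold of the nuclear bodies that also hold SP100, was lower in both KO libraries, at 44.2 and 43.3 CPM against 58.4 and 53.3 CPM (log2 -0.35 ± 0.19 SE; edgeR adjusted p = 0.721).

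**Figure D4:**
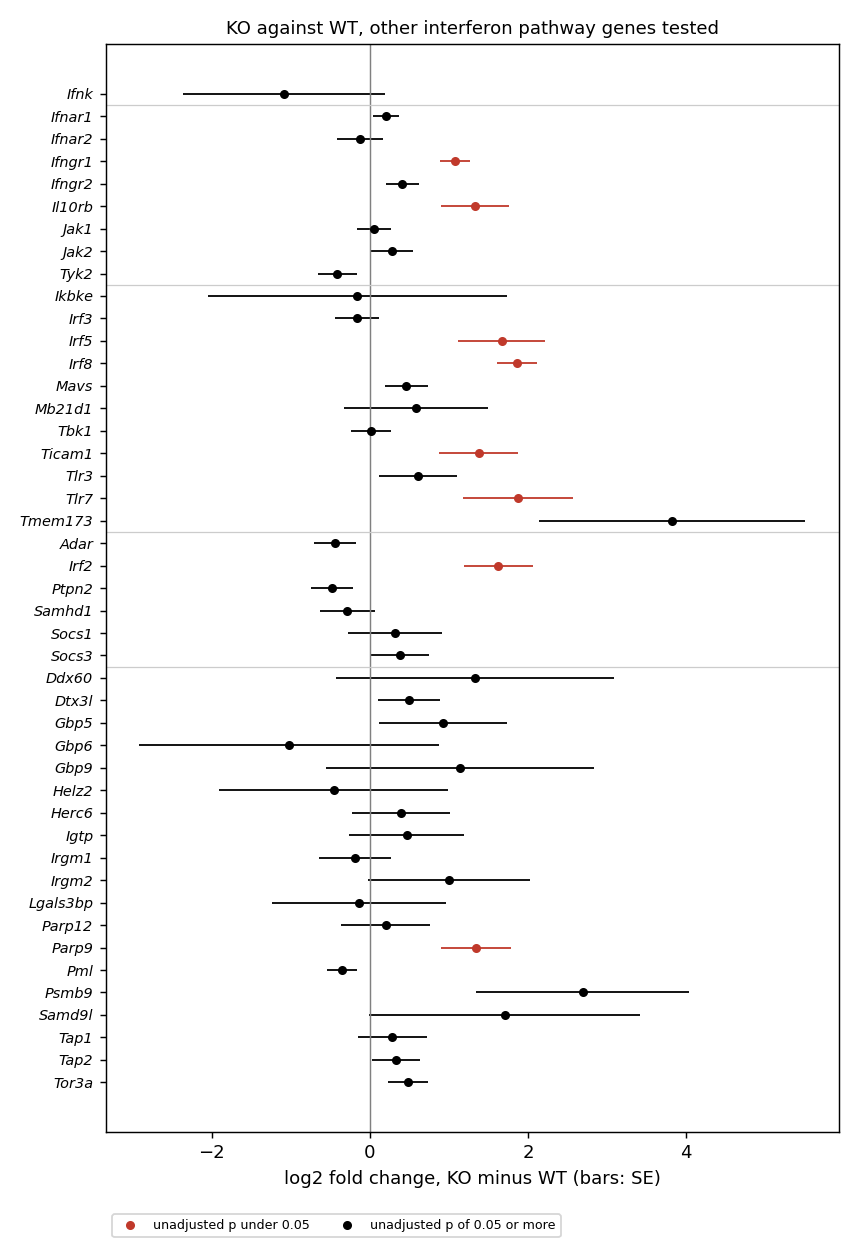
Log2 fold change, KO minus WT, with standard errors for the 46 tested interferon pathway genes outside the list, 1 of them not shown, in blocks from top to bottom of ligands, receptors and transducers, inducers, negative regulators and other interferon-induced genes. Red points have an unadjusted p under 0.05 and all lie right of 0, with Irf8, Irf5, Irf2 and Ifngr1 among them.

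Marker lists of cell types were read from the same test, and they differed among themselves. All 24 microglia and macrophage markers were above 0 (50.0% of all genes tested), with a median log2 fold change of 1.89, and none was at 0 in any library. Of the 24, 22 were higher at an unadjusted p under 0.05 (5.88% of all genes). The adjusted threshold was passed by 1 (edgeR), against 0.017% of all genes as higher. The 7 border-associated macrophage markers summed to 176 and 72.0 CPM in the KO libraries and to 19.6 and 25.2 CPM in the WT libraries. The 12 endothelial markers, all above 0 (50.0% of all genes) with a median of 1.93, summed to 594 and 303 CPM against 183 and 71.9 CPM.

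Markers of leptomeningeal fibroblasts summed to 306 CPM in KO replicate 1 and to between 59.9 and 71.6 CPM in the other 3 libraries, and those of pericytes and smooth muscle to 699 CPM against between 336 and 412 CPM. KO replicate 1 thus stood apart in vascular and meningeal markers. The 2 of 6 T and NK cell markers with a row, Cd4 and Ncr1, were at 0 in both WT libraries and summed to 1.31 and 1.10 CPM in the KO libraries, while 4 neutrophil markers summed to at most 1.46 CPM. The 9 astrocyte markers had a median of -0.07, the 6 neuronal markers -0.14 and the 7 of the oligodendrocyte lineage 0.66. The part of these cell types in the values of the interferon-stimulated genes was not tested.

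**Figure D5:**
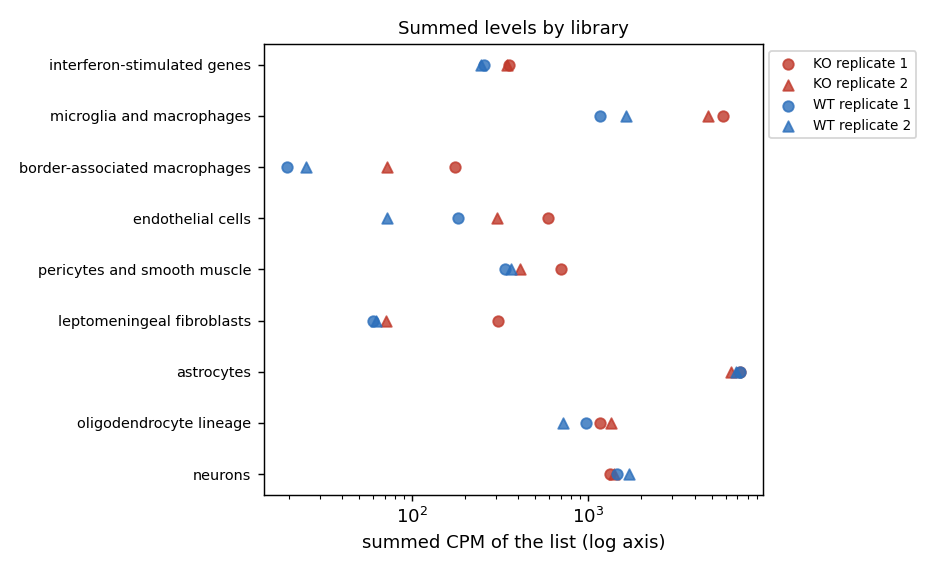
Summed CPM of the interferon-stimulated genes and of 8 cell type marker lists in each library, on a log axis, with KO libraries in red and WT libraries in blue. The 4 marks of the interferon-stimulated genes lie between 246 and 353 CPM, those of microglia and macrophages between 1163 and 5772 CPM with the colours apart, and those of astrocytes close together.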

How the data were processed

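The authors deposited 4 tables, each pairing a KO library with a WT library, with whole-number counts per gene for both, per the file headers. Their normalized values, fold changes and p-values were not used. The submitters' processing notes name, without roles, the tools HTSeq 0.6.0, TopHat2 2.0.12 and Bowtie2 2.2.3 and the build mm9. Since 90.6% of the deposited gene positions equal those of GENCODE M21, positions are read as GRCm38. No source used here says if strand was used in counting.

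The tables were joined by gene. Counts listed in none of them were taken as 0, with 4 as their upper limit. Such counts come to at most 0.0193% of a library. Replicates differed by more than sampling noise (chi-square per gene 21.0 for KO and 32.1 for WT).

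KO was compared with WT in edgeR 4.0.16 (R 4.3.3; TMM, filterByExpr with a minimum count of 10, quasi-likelihood test, Benjamini-Hochberg over all 17696 genes, threshold 0.05), with 2 residual degrees of freedom and a common dispersion of 0.204, and the method was tested on simulated data. CPM values are on TMM-scaled library sizes, and standard errors were derived from the F statistic. Alternatives were DESeq2 1.42.0, limma-voom (limma 3.58.1), other scalings and filters, a replicate block, unlisted counts at their limit, and leaving out each library.

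Values in every library are given for members with a mean of at least 5 CPM or an unadjusted p under 0.05, others by range. From each other pathway list, the 2 genes of smallest p and the most abundant per length are named. Of the tested pathway genes, 1 is not reported here by name but is included in list counts. The members and lists were chosen with earlier results of these data known. Motifs were searched on both strands in RefSeq windows (GRCm38.p6).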

Additional observations from a re-analysis of the deposited data

How the results depend on the processing

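The count of genes past the adjusted threshold, 3 in the edgeR test, was 378 with DESeq2, 28 with limma-voom, 56 with no filter, 68 with genes of at least 5 CPM, and between 0 (without KO replicate 2) and 42 (without WT replicate 2) when 1 library was left out. The count of interferon-stimulated genes past it stayed at 0 in every alternative but DESeq2, which gave 1. At an unadjusted p under 0.05 the count was between 1 and 8 when 1 library was left out. The median log2 fold change of 0.86 was 0.95 with limma-voom, 0.46 with genes of at least 5 CPM, and between 0.46 and 0.98 with 1 library left out. Groups lay apart upward in 10 of the 15 members of at least 5 CPM. Where a left-out library leaves a group with 1 library, that library is assumed to vary like the others.

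The replicate numbers of the labels did not pair the libraries (correlation of deviations 0.0405). With a replicate block 4 genes passed, 0 of them members, 8 members had an unadjusted p under 0.05 and the median was 0.86. The share of all genes at that unadjusted p was not counted for this fit, nor for the fits with a library left out.

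Of 29 tested members, 20 had no sign change in the alternatives that gave them a value, and 12 of these 20 had a value in all 12. Among the 20, Oas2, Ifit3, Rsad2, Sp100, Dhx58, Parp14 and Trim30a passed the low-count filter in both KO libraries but not in both WT libraries. Their upward sign was thus partly set by the filter. With 0 counts in both WT libraries, Rsad2 and Sp100 could not change sign. Ifit3b (-0.15) was at 1.67 with limma-voom and at 1.22 with the block, and from -1.15 to 6.13 with 1 library left out, the last against a WT library at 0 and so dependent on the prior count. Rtp4 (-0.23) was at 0.48, at 0.33 and from -1.04 to 1.77 in the same order. With 1 library left out, Gbp2 ran from -0.60 to 0.37, Ifih1 from -0.90 to 0.19, Ifit2 from -0.16 to 0.0057, Ifitm2 from -0.39 to 0.48, Ifitm3 from -0.10 to 0.48, Oasl2 from -1.45 to 0.95 and Xaf1 from -0.24 to 2.04. The cause was not tested. With 2 libraries a group, a member at a few counts can show no difference at this depth, and near-identical copies (Mx1 with Mx2, 94.8% over 920 bases, and Trim30a with Trim30d, 90.1% over 1719) leave their values uncertain.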
